A study of Ambystoma mexicanum with 12 samples.

Results

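Spinal cords given the miR-200a inhibitor were compared with cords not labelled as given it, in animals of the axolotl (Ambystoma mexicanum) whose cords had not been injured, with 3 RNA-seq libraries against 3. All genes with a mean TPM of at least 1 in these 6 libraries were taken, which kept 13870 of the 15091 genes in the table and left out 1221. TPM is the share that a gene takes of the transcripts of a library, corrected for transcript length. The uninjured libraries (replicates 1, 2 and 5) came from cords without the miR-200 inhibitor, and the uninjured inhibitor libraries (replicates 5, 6 and 7) from cords whose label says that the miR-200 inhibitor was injected. The other 6 libraries of the series came from cords in which part of the cord was cut out, collected 4 days post injury (4 dpi), with the control inhibitor (replicates 1, 5 and 6) or the miR-200 inhibitor (replicates 5, 6 and 7).

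The labels describe pressure injection of the inhibitor into the central canal of small larval animals and tissue of 10 animals pooled for each library. The study's methods give a different number of pooled cords. The titles of uninjured replicates 1 and 5 hold the abbreviation Cntl. The title of the library called replicate 2 here holds neither Cntl nor a separate replicate number. It is not stated in the labels if these cords received the control inhibitor, another injection or none. The labels do not give how long the inhibitor stayed in the others before collection either, so the inhibitor and the injection procedure cannot be told apart. Nothing in the labels says which pools were collected on separate days, so p-values measure the spread between these libraries only.

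MicroRNAs are short RNAs that guide Argonaute proteins to partly matching messenger RNAs and lower their stability or translation, and an antisense inhibitor occupies the microRNA so that its targets are released. The miR-200 family is best known for repressing the transcription factors ZEB1 and ZEB2 and for holding cells in an epithelial state. The axolotl cord regenerates from ependymoglia, radial glial cells that line the central canal, express GFAP and SOX2 and proliferate after injury without forming a glial scar.

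The values below are TPM divided by a median-of-ratios factor for each library, called scaled TPM. This factor was 1.77, 1.11 and 1.21 in the uninjured libraries and 0.659, 0.774 and 0.649 in the inhibitor libraries. In the deposited TPM the median gene was 2.16-fold lower with the inhibitor (median log2 fold change −1.11), in scaled TPM it was at −0.19 and after quantile normalization at −0.01. A call under all 3 of these scalings is therefore given beside the main call. On the first principal component of the 6 libraries, which held 56.1% of the variance, the uninjured libraries lay at −123, −61.7 and −53.5 and the inhibitor libraries at 92.9, 23.6 and 121, so the groups did not overlap. Between 675 and 776 genes were listed at 0 in the uninjured libraries and between 823 and 1399 in the inhibitor libraries. The sequencing depth is unknown from TPM, so no counting error can be given.

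Markers of cord cells were present in all 6 libraries, together with transcripts of muscle and skin. GFAP, the intermediate filament of astrocytes and ependymoglia, was at 1317, 406 and 858 scaled TPM without and 504, 339 and 986 with the inhibitor. The summed level of 42 skeletal muscle genes was 11653, 68196 and 51412 scaled TPM in uninjured replicates 1, 2 and 5 and 18884 to 28033 with the inhibitor. For 39 skin genes the sum was 5140, 24325 and 12192 without and 3969 to 10746 with the inhibitor. The sum of 35 neuron genes was 11147 in uninjured replicate 1 against 3141 and 5316 in replicates 2 and 5 and 4829 to 7036 with the inhibitor. Uninjured replicate 1 was thus the library richest in neuron transcripts and replicates 2 and 5 the richest in muscle transcripts. In bulk tissue, fewer cells of a type and less RNA per cell cannot be told apart.

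With the inhibitor, 2651 genes rose (19.1% of those tested) and 2459 fell (17.7%) at an adjusted p under 0.05 (limma, Benjamini-Hochberg over 13870 genes). At a change of at least 4-fold there were 482 higher and 1009 lower genes. On the deposited TPM without scaling, 1013 genes were higher (7.30%) and 7060 lower (50.9%), and under all 3 scalings 943 were higher (6.80%) and 1150 lower (8.29%). All 2459 lower genes were also called lower in deposited TPM, where the median gene was lower. A fall under all 3 scalings therefore adds only the call after quantile normalization. Of the 2651 higher genes, 1013 kept the call in deposited TPM and 1927 after quantile normalization, so the 6.80% and 8.29% are not like measures. The libraries of the groups did not overlap for 3089 genes that were higher with the inhibitor (22.3%) and 2837 that were lower (20.5%). The replicate that mattered most was inhibitor replicate 5, without which 1740 genes rose and 1094 fell.

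The direction of the change went with the abundance of the gene. Of 6676 genes with a mean under 10 scaled TPM, 368 rose and 1576 fell, with a median log2 fold change of −0.66. Of 187 genes at 1000 or more, 151 rose and 5 fell, with a median of 1.94. The same classes had medians of −0.07 and 0.59 after quantile normalization, so most of this slope was absent on that scale. For the lists of protein synthesis, respiration, protein folding and splicing below both medians are given, and the part of the slope in them was not tested.

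**Figure D1:**
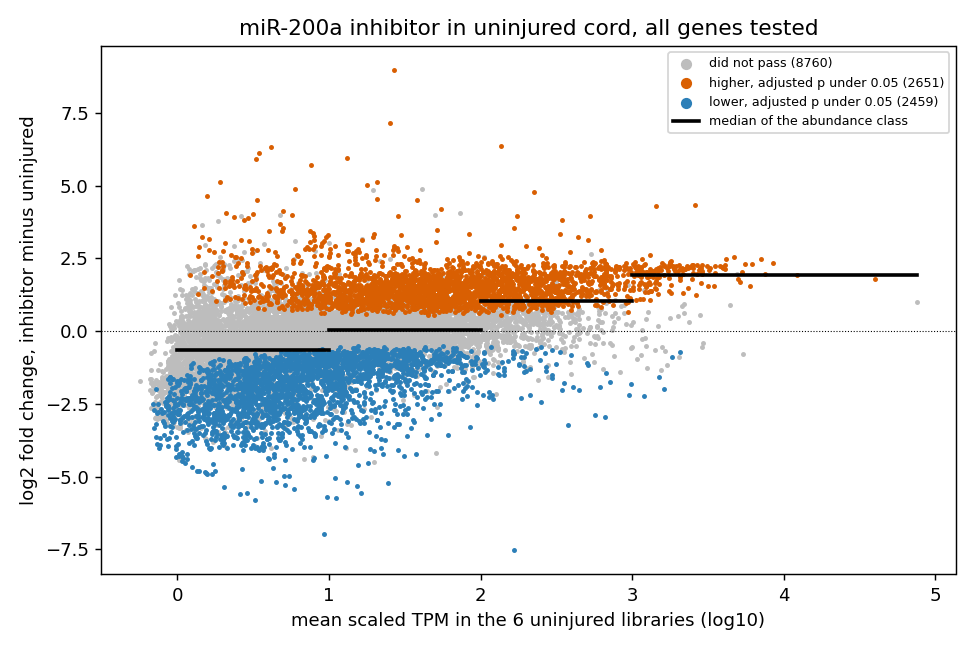
Log2 fold change (uninjured inhibitor minus uninjured, scaled TPM + 0.1) of 13870 genes against the log10 of their mean scaled TPM in the 6 libraries. Orange points rose (2651), blue points fell (2459) and grey points did not pass; black lines are the medians of 4 abundance classes, which run from −0.66 to 1.94.

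Genes of phagocytes rose together. Of 32 microglia and macrophage genes tested, 20 rose (62.5%) and none fell, beside 19.1% and 17.7% of all genes. Of these 20, 11 rose under all 3 scalings. The median log2 fold change of the list was 1.54 in scaled TPM and 1.79 after quantile normalization. Over all genes it was −0.19 and −0.01. LCP1, the actin-bundling plastin of leukocytes, was at 5.94, 6.78 and 6.70 scaled TPM in the uninjured libraries and at 41.3, 39.6 and 38.7 with the inhibitor. Every inhibitor library lay far above every uninjured library, and the log2 fold change was 2.60 ± 0.18 (SE; limma adjusted p = 3.95e-05). MRC1, the macrophage mannose receptor, went from 1.5, 2.09 and 2.03 to 15, 12.6 and 14.0, a log2 change of 2.83 ± 0.25 (limma adjusted p = 0.000218). CYBB, the catalytic subunit of the phagocyte oxidase, was at 8.30, 14.0 and 8.48 without and at 73.2, 55.0 and 80.7 with the inhibitor, and it rose by 2.77 ± 0.26 on the log2 scale. The groups did not overlap for any of these genes.

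The scavenger receptor MARCO was at 2.37, 1.55 and 1.75 scaled TPM in uninjured cords and at 18.3, 12.5 and 17.6 with the inhibitor, 3.03 ± 0.28 higher on the log2 scale (limma adjusted p = 0.000218). TREM2, a lipid-sensing receptor of microglia, had 5.66, 2.65 and 4.42 without and 26.1, 25.4 and 29.8 with it. C1QC, a chain of the complement component that macrophages secrete, was at 25.8, 11.6 and 53.5 and then at 334, 213 and 359. Both sets were separate between the groups, with log2 changes of 2.71 ± 0.28 for TREM2 and 3.54 ± 0.43 for C1QC. C1QB moved alongside, by 3.11 ± 0.37. APOE, a lipid carrier made by glia and macrophages and the most abundant gene of the list, was at 80.0, 146 and 277 without and 1213, 586 and 1450 with the inhibitor, 2.77 ± 0.53 higher.

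Among 13 granulocyte genes, 4 rose and 1 fell (30.8% and 7.69%, beside 19.1% and 17.7% of all genes). LYZ, the antibacterial lysozyme, had 44.0, 80.8 and 72.2 scaled TPM in uninjured cords and 1084, 792 and 1107 with the inhibitor, 3.95 ± 0.31 higher on the log2 scale (limma adjusted p = 0.000103). PLBD1, a phospholipase B-like enzyme of granulocytes and monocytes, went from 3.00, 2.70 and 3.38 to 96.1, 58.1 and 64.4. This change of 4.51 ± 0.26 had the smallest p of all genes tested (limma adjusted p = 8.84e-06). PRG2, the eosinophil major basic protein, was listed at 0 in 2 of the uninjured libraries and at 4.04 in replicate 1, against 50.8, 39.0 and 58.0 with the inhibitor. The chemokine receptor CXCR1 rose from 1.34, 4.35 and 0.652 to 9.87, 10.2 and 10.7. CEBPA, a transcription factor needed to make granulocytes, went the other way, from 1.91, 0.710 and 2.00 to 0 in every inhibitor library. These values are low, and the gene has no fold change, because the inhibitor group is listed at 0. The sum of the granulocyte list was 77.6 to 312 scaled TPM without and 1010 to 1362 with the inhibitor, most of it LYZ.

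CLEC5A, CD207, PPBP and FABP1 stood among the 15 largest increases. CLEC5A, a C-type lectin of monocytes and neutrophils, was listed at 0 in 2 uninjured libraries and at 1.94 in the other one, and at 13.5, 12.1 and 18.1 with the inhibitor. CD207, the lectin langerin of Langerhans cells, was at 0, 0.374 and 1.12 and then at 12.1, 11.1 and 11.2. PPBP, a platelet chemokine, was at 2.80, 0 and 2.28 against 52.9, 12 and 36.8. None of these overlapped between the groups. FABP1, a fatty acid carrier known from mammalian liver and gut, went from 0.688, 0.894 and 1.68 to 29.2, 57.6 and 34.3, a log2 change of 5.12 ± 0.49 (limma adjusted p = 0.000256).

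The phagocyte levels of uninjured inhibitor cords can be set beside those of injured cords. LCP1 was at 38.7, 49.7 and 44.6 scaled TPM in 4 dpi control libraries and at 101, 98.9 and 102 in 4 dpi inhibitor libraries. LYZ was at 484, 882 and 675 in 4 dpi controls and at 2003, 1872 and 2461 with the inhibitor after injury. MARCO was at 30.8, 16.7 and 23.9 in 4 dpi controls and 20.6, 26.4 and 25.2 in 4 dpi inhibitor cords. In uninjured inhibitor cords LCP1 overlapped the 4 dpi controls, LYZ lay above their range in 2 of 3 libraries, and MARCO overlapped it.

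**Figure D2:**
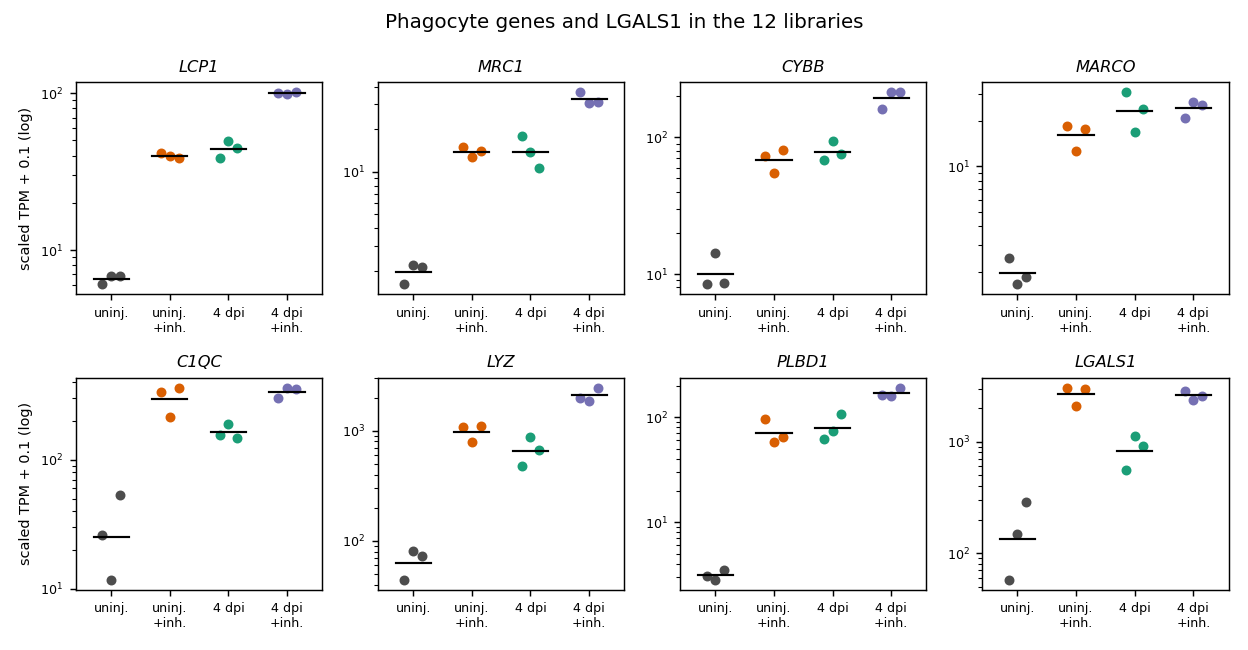
Scaled TPM + 0.1 (log axis) of 8 genes in the 12 libraries, 3 per group; points are libraries and the black line is the mean on the log scale. Each of the genes is higher in all uninjured inhibitor libraries than in any uninjured library, for example LCP1 at 38.7 to 41.3 against 5.94 to 6.78.

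Signals and effectors of inflammation moved less uniformly than phagocyte genes. Of 16 cytokine and chemokine genes 2 rose (12.5%, below the 19.1% of all genes) and none fell. CCL3L3, a chemokine that draws monocytes, was at 0.972, 3.79 and 1.35 scaled TPM without and 10.2, 5.72 and 12.6 with the inhibitor, 2.33 ± 0.56 higher on the log2 scale (limma adjusted p = 0.00936). CXCL10, an interferon-induced chemokine, was at 0.459, 3.88 and 3.64 and then at 10.1, 9.77 and 10.6 (limma adjusted p = 0.0331). The groups did not overlap for either gene. CXCL10 passed in 8 of the 12 fits that left out 1 library, and not without uninjured replicate 1 (limma adjusted p = 0.118).

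Interferon response genes had 1 of 23 higher and 7 lower (4.35% and 30.4%, beside 19.1% and 17.7% of all genes), with a median log2 fold change of −0.40. When single libraries of the compared groups were left out, the lower count lay between 5 and 9, the latter without uninjured replicate 5. Without uninjured replicate 2, 1 was higher, 5 were lower and the median was 0.11. With a replicate block, 1 was higher and 0 were lower. The summed level was 393, 1016 and 457 scaled TPM without and 803, 551 and 342 with the inhibitor, so the groups overlapped. OAS1, which makes the activator of an antiviral RNase, was at 7.21, 17.7 and 15.8 scaled TPM in uninjured cords and at 2.12, 2.25 and 0 with the inhibitor, a log2 change of −3.98 ± 0.97 (limma adjusted p = 0.00976). TAP1, a peptide transporter of antigen presentation, went from 21.5, 19.5 and 6.88 to 3.31, 2.26 and 2.05. DHX58 and PSMB8, an RNA sensor and an immunoproteasome subunit, fell from 2.23 to 5.04 in both genes together to at most 1.39. IL27, named for a cytokine subunit of myeloid cells, was at 1.69, 8.80 and 6.71 and was listed at 0 in every inhibitor library.

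Complement and coagulation genes rose more often than they fell in scaled TPM, with 14 higher and 3 lower of 32 (43.8% and 9.38%, beside 19.1% and 17.7% of all genes). The counts were 6 and 1 without uninjured inhibitor replicate 5 and 6 and 0 without uninjured inhibitor replicate 7. With the 6 compared libraries fitted alone, 5 rose and 2 fell. The median log2 fold change of the list was 0.21. Besides the C1Q chains, C9, a pore-forming complement protein, was at 4.65, 9.82 and 13.2 scaled TPM without and 27.2, 21.2 and 43.0 with the inhibitor, 1.78 ± 0.36 higher on the log2 scale. F2, prothrombin, was listed at 0 in all uninjured libraries and at 8.07, 11.2 and 5.59 with the inhibitor. HAO1, a liver peroxisomal oxidase in mammals, was likewise at 0 in all 3 uninjured libraries and at 10.3, 3.35 and 6.15 with the inhibitor. PLA2G2E, a secreted phospholipase, was at 0 and then at 7.03, 7.20 and 6.52, and TDRD9, a piRNA pathway helicase of the germline, at 0 and then at 59.7, 29.8 and 70.8. These 4 genes have no fold change, because the uninjured group is listed at 0.

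Glial genes went in both directions. Of 24 ependymoglia genes 2 rose and 3 fell (8.33% and 12.5%, both below the 19.1% and 17.7% of all genes). Of 23 genes known from reactive astrocytes 7 rose and 2 fell (30.4% and 8.70%). VIM, the intermediate filament vimentin, was at 263, 208 and 317 scaled TPM in uninjured cords and at 668, 486 and 823 with the inhibitor, a log2 change of 1.32 ± 0.25 (limma adjusted p = 0.00369). NES, the progenitor filament nestin, was at 69.3, 51.8 and 74.8 and then at 127, 186 and 134. The groups were separate for both, but neither passed under all 3 scalings. GFAP overlapped between the groups, with a log2 fold change of −0.48 ± 0.45 (limma adjusted p = 0.412).

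The neural stem cell factor SOX2 was at 131, 51.9 and 47.2 scaled TPM without and 27.1, 34.6 and 33.9 with the inhibitor. It passed with a log2 fold change of −1.11 ± 0.38 (limma adjusted p = 0.0393), but in only 4 of the 12 fits that left out 1 library. Without uninjured replicate 1 it did not pass (limma adjusted p = 0.136). SLC1A2, a glutamate transporter of astroglia, had 79.0, 3.59 and 24.7 without and 0.337, 2.33 and 1.36 with the inhibitor, and did not pass without uninjured replicate 1 either (adjusted p = 0.0617). ID3, an inhibitor of differentiation factors, went from 68.8, 148 and 66.8 to 42.8, 42.8 and 49.2, and did not pass without uninjured inhibitor replicate 5 (adjusted p = 0.0781). In all of these the uninjured libraries were higher, and for SOX2 and SLC1A2 replicate 1 was the highest. SLC1A3, the other glutamate transporter of ependymoglia, at 478, 122 and 205 against 106, 106 and 123, and the lipid carrier FABP7, at 358, 116 and 194 against 438, 317 and 446, did not pass (limma adjusted p = 0.0932 and 0.0604).

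LGALS1, a galectin that binds matrix and cell surface sugars and is made by reactive glia, fibroblasts and macrophages, was at 56.9, 150 and 285 scaled TPM in uninjured cords and at 3053, 2094 and 2961 with the inhibitor. No library overlapped, and the log2 fold change was 4.31 ± 0.49 (limma adjusted p = 0.000848). S100A10, a partner of annexin A2, went from 216, 495 and 426 to 2401, 1709 and 2632. SERPING1, the inhibitor of complement C1, went from 2.86, 1.27 and 11.2 to 31.8, 27.6 and 15.9. All of them rose under all 3 scalings.

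The study asked how miR-200a bears on AP-1, the dimer of FOS and JUN family proteins that switches on genes after injury. Of 10 AP-1 subunits tested, 2 rose and 1 fell (20% and 10%, beside 19.1% and 17.7% of all genes). JUN, also on the list of miR-200 targets below, was at 39.9, 56.9 and 27.1 scaled TPM without and 32.5, 43.7 and 41.8 with the inhibitor. The groups overlapped and the log2 fold change was −0.02 ± 0.29 (limma adjusted p = 0.967). The study, by contrast, reported from qRT-PCR that c-Jun was significantly higher in uninjured cords given the inhibitor. That rise was not seen in these libraries, and the reason for the difference was not tested. FOS was at 0.911, 2.21 and 0.544 and then at 1.12, 3.01 and 2.66, with a log2 fold change of 0.93 ± 0.85 (limma adjusted p = 0.400). JUNB was at 21.3, 313 and 32.2 without and 38.8, 71.6 and 55.2 with the inhibitor, and uninjured replicate 2 alone was far above the rest.

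BATF3, an AP-1 partner known from dendritic cells, had the clearest change of the subunits, from 0.200, 1.56 and 0.488 scaled TPM to 8.52, 9.81 and 13.7 (log2 fold change 3.99 ± 0.57, limma adjusted p = 0.00200). It rose under all 3 scalings. ATF3, a stress-induced member, was at 0.431, 2.64 and 0.681 and then at 2.04, 3.14 and 3.40, so the groups overlapped. It passed at a limma adjusted p of 0.0385, but in only 2 of the 12 fits that left out 1 library (0.132 without uninjured replicate 1). FOSL2 was at 3.49, 21.3 and 6.45 without and 1.70, 5.92 and 0.787 with the inhibitor (limma adjusted p = 0.0434), and it passed in 2 of the 12 fits that left out 1 library.

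**Figure D3:**
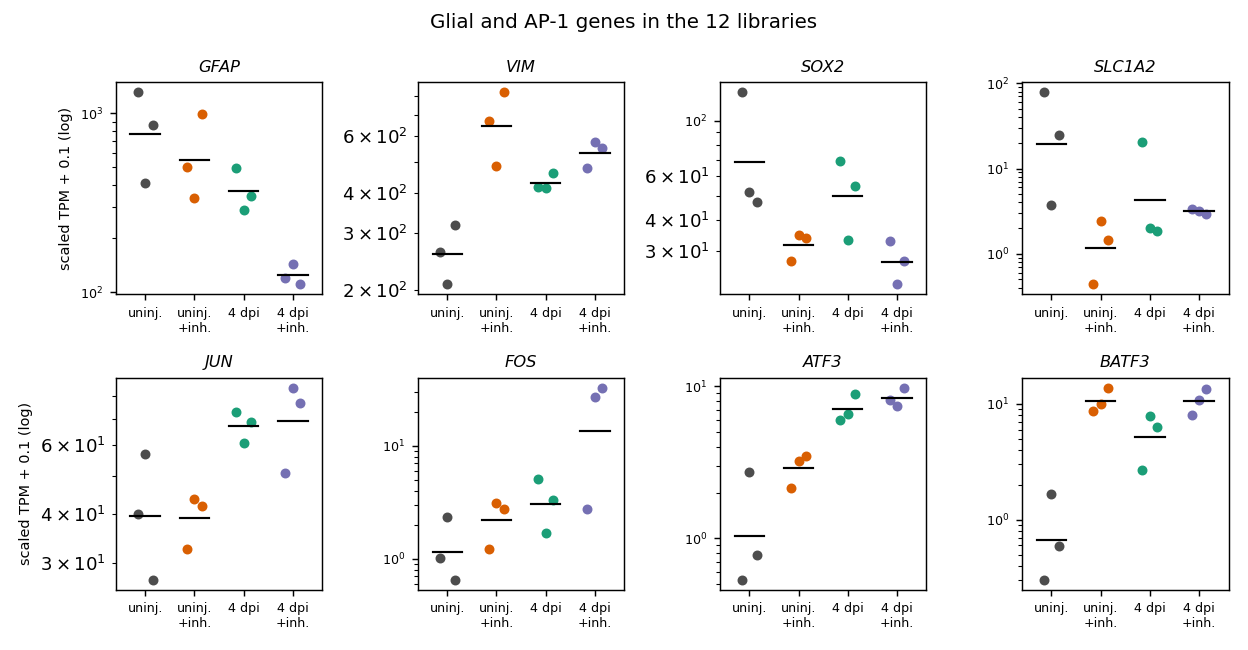
Scaled TPM + 0.1 (log axis) of 4 glial and 4 AP-1 genes in the 12 libraries, 3 per group; points are libraries and the black line is the mean on the log scale. VIM and BATF3 are higher in all uninjured inhibitor libraries than in the uninjured ones, whereas GFAP, JUN and FOS overlap.

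Known targets of the miR-200 family, a list taken from work in mammals and axolotl, had 4 of 37 members higher and 6 lower. These shares of 10.8% and 16.2% were below the 19.1% and 17.7% of all genes. Without uninjured replicate 1, 3 targets were higher and 1 lower. The counts were 2 and 0 without uninjured inhibitor replicate 5 and 4 and 1 without uninjured inhibitor replicate 7. The median log2 fold change of the targets was −0.10 in scaled TPM and −0.15 after quantile normalization. ZEB1 was at 18.9, 10.9 and 27.9 scaled TPM without and 26.0, 31.8 and 20.2 with the inhibitor, and ZEB2 at 13.9, 5.45 and 9.2 against 8.24, 11 and 7.99. Both overlapped, with log2 fold changes of 0.51 ± 0.34 and 0.02 ± 0.32 (limma adjusted p = 0.254 and 0.973). ZEB1 and ZEB2 were chosen after their values were seen.

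The targets that passed, in no larger shares than all genes, had several roles. CFL2, the muscle cofilin that severs actin filaments, went from 1680, 2993 and 2814 to 8952, 6824 and 7587 scaled TPM with the inhibitor, 1.68 ± 0.39 higher on the log2 scale (limma adjusted p = 0.00816). SIRT1, a deacetylase, went from 47.3, 35.0 and 51.9 to 90.2, 79.6 and 77.3. Neither passed under all 3 scalings, and SIRT1 had a log2 fold change of −0.05 in deposited TPM. EP300, a histone acetyltransferase, was lower, at 9.26, 9.40 and 4.58 without and 1.85, 3.28 and 2.68 with the inhibitor (log2 fold change −1.50 ± 0.40).

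Genes of the microRNA machinery had 1 member higher and 4 lower of 15 (6.67% and 26.7%, beside 19.1% and 17.7% of all genes). The counts were 1 and 1 without uninjured replicate 1, and likewise without either uninjured inhibitor replicate 5 or 7. DROSHA, the nuclease that cuts primary microRNA transcripts, was at 5.04, 2.71 and 2.60 scaled TPM without and 0.384, 1.18 and 0.0711 with the inhibitor, a log2 fold change of −2.84 ± 0.70 (limma adjusted p = 0.0102), under all 3 scalings. PRKRA, a partner of DICER1, went from 88.4, 75.3 and 104 to 262, 237 and 177. DICER1 overlapped, at 20.5, 13.5 and 16.5 against 13.3, 12.5 and 17.4 (limma adjusted p = 0.488). AGO2, an Argonaute, was at 5.04, 1.91 and 4.15 and then at 0.197, 3.33 and 0.0771, and passed in 8 of 12 fits that left out 1 library.

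Proteoglycans of scars had 2 of 14 members higher and 4 lower (14.3% and 28.6%, beside 19.1% and 17.7% of all genes). Of 30 genes that the study sorted into functional groups, 6 rose and 8 fell (20% and 26.7%). The study chose these 30 by comparing injured cords with the same uninjured libraries, so they are no independent evidence of a direction. Without uninjured replicate 1, 2 of the proteoglycans and 3 of the grouped genes were lower. Without uninjured replicate 2, 6 and 9 were lower, but 9 of the grouped genes were then also higher. The lower counts were 2 and 5 without uninjured inhibitor replicate 5 and 3 and 3 without uninjured inhibitor replicate 7. BGN, a small matrix proteoglycan, was at 56.2, 74.0 and 54.3 scaled TPM without and 5.13, 21.1 and 3.50 with the inhibitor (log2 fold change −3.05 ± 0.58, limma adjusted p = 0.00365). BCAN, the neural proteoglycan brevican, was at 127, 32.8 and 33.6 and then at 13.3, 9.52 and 23.1, and passed in 6 of 12 fits that left out 1 library (adjusted p = 0.147 without uninjured replicate 1). DCN and LUM, small proteoglycans of connective tissue, were higher in scaled TPM. No proteoglycan of the list was called higher in deposited TPM or after quantile normalization. DCN went from 57.8, 69.9 and 336 to 627, 711 and 208, with an overlap. It passed in 8 of the 12 fits that left out 1 library, and not without uninjured replicate 1 (limma adjusted p = 0.0905). LUM went from 304, 455 and 930 to 1695, 1722 and 998, and passed in 11 of the 12 fits that left out 1 library. CSPG4, the NG2 proteoglycan, was at 2.08, 2.95 and 2.64 against 2.85, 2.51 and 2.27 (limma adjusted p = 0.999).

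Partners of integrins were split. ITGB1BP1 and ITGB3BP, which bind integrin tails, rose from 18.6, 21.5 and 27.1 to 74.1, 78.9 and 63.8 and from 5.50, 7.64 and 14.6 to 36.2, 27.5 and 32.7 scaled TPM. CD151, a tetraspanin that holds laminin-binding integrins, fell from 21.5, 13.1 and 16.8 to 1.87, 6.55 and 0.867, a log2 fold change of −2.86 ± 0.55 (limma adjusted p = 0.00365). All these libraries were separate between the groups and passed under all 3 scalings. Of 31 integrins and laminins themselves, none rose and 8 fell (25.8%, beside 17.7% of all genes). Of 40 genes of matrix remodeling 5 rose and 10 fell (12.5% and 25%, beside 19.1% and 17.7%). The matrix remodeling counts were 2 and 5 without uninjured replicate 1, 1 and 6 without uninjured inhibitor replicate 5 and 4 and 5 without uninjured inhibitor replicate 7.

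Genes of neurons were lower by a count that turned on single libraries. Of 35 neuron genes 2 rose and 13 fell (5.71% and 37.1%, beside 19.1% and 17.7% of all genes). The median log2 fold change was −1.46. Without uninjured replicate 1, 3 rose, 2 fell and the median was −0.84. Without uninjured inhibitor replicate 5 or 7, 3 and 2 fell, but 20 fell without uninjured replicate 2 and 16 without uninjured inhibitor replicate 6. RBFOX3, the nuclear antigen NeuN, was at 24.9, 16.5 and 5.22 scaled TPM without and 1.53, 3.63 and 2.12 with the inhibitor (log2 fold change −2.45 ± 0.53, limma adjusted p = 0.00580). NEFH, the heavy neurofilament, was at 368, 27.2 and 79.8 and then at 12.2, 19.5 and 3.36. GAD1, which makes the transmitter GABA, was at 25.8, 10.4 and 7.26 and then at 2.76, 6.35 and 2.18. The groups did not overlap for these 3 genes, and replicate 1 was the highest in each.

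RBFOX3 passed in all 12 fits that left out 1 library, NEFH and GAD1 in 10 of them. UCHL1, an abundant neuronal deubiquitinase, rose instead, from 130, 45.3 and 137 to 382, 307 and 468 scaled TPM. NEFM, the medium neurofilament, was at 1603, 397 and 434 against 245, 283 and 426 and did not pass (limma adjusted p = 0.110). Of 50 synapse and ion channel genes 1 rose and 8 fell (16.0%, near the 17.7% of all genes). Without uninjured replicate 1, 1 fell, and likewise 1 without either uninjured inhibitor replicate 5 or 7, but 16 fell without uninjured replicate 2. KCNA1, an axonal potassium channel, was at 55.9, 38.4 and 20.1 without and 10.3, 13.5 and 10.8 with the inhibitor.

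Axon guidance genes had 1 of 49 members higher and 17 lower (2.04% and 34.7%, beside 19.1% and 17.7% of all genes). Without uninjured replicate 1, 6 were lower, and likewise 6 without either uninjured inhibitor replicate 5 or 7, but 19 without uninjured replicate 2. SEMA3A, a repellent of growing axons, was at 18.3, 4.33 and 6.17 scaled TPM without and 1.14, 1.99 and 0.487 with the inhibitor (log2 fold change −2.80 ± 0.65, limma adjusted p = 0.00796). SEMA3G of the same family was at 11.5, 2.87 and 5.02 and then at 0, 1.14 and 0.193, and PLXNB2, a semaphorin receptor, at 3.53, 3.41 and 2.14 and then at 0.329, 0.968 and 0.0609. RTN4, the myelin inhibitor Nogo, was the member that rose, from 170, 166 and 204 to 359, 378 and 325. The cell adhesion genes CHL1, at 58.9, 7.59 and 14.8 against 2.25, 5.54 and 0.858, and CLSTN1, at 100, 7.56 and 24.6 against 2.23, 6.40 and 0.422, fell as well, but neither passed without uninjured replicate 1 (adjusted p = 0.0610 and 0.0657).

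Of 18 oligodendrocyte genes 1 rose and 3 fell (16.7%, near the 17.7% of all genes). ERMN, ermin of the myelin sheath, was the member that rose, from 75.8, 12.2 and 56.8 scaled TPM to 147, 124 and 151. BCAS1, a marker of myelin-forming oligodendrocytes, was at 10.5, 9.63 and 5.72 scaled TPM without and 2.14, 1.92 and 2.66 with the inhibitor. MAG and MYRF, a myelin glycoprotein and the factor that drives myelin genes, passed, but in only 5 and 4 of the 12 fits that left out 1 library. Neither passed without uninjured replicate 1 (limma adjusted p = 0.150 and 0.154). Among 9 Schwann cell genes 3 fell (33.3%, beside 17.7% of all genes), all under the 3 scalings. PRX, periaxin of peripheral myelin, was at 19.4, 24.4 and 44.7 and then at 2.07, 1.98 and 0.233 (log2 fold change −4.60 ± 0.86), and POU3F1 and NGFR, a transcription factor and the low-affinity neurotrophin receptor, changed by −2.94 ± 0.55 and −2.30 ± 0.49.

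Signaling genes of the WNT, BMP, hedgehog and Notch pathways had 2 of 68 members higher and 21 lower. These shares were 2.94% and 30.9%, beside 19.1% and 17.7% of all genes. The median log2 fold change was −0.74. The lower count was 13 without uninjured replicate 1, 11 without uninjured inhibitor replicate 5 and 9 without uninjured inhibitor replicate 7. It was 24 without uninjured inhibitor replicate 6. BMPR2, a BMP receptor, was at 25.2, 8.41 and 8.62 scaled TPM without and 2.43, 4.32 and 1.17 with the inhibitor. SMAD1, which carries the BMP signal to the nucleus, was at 49.4, 28.2 and 28.9 and then at 12.7, 14.4 and 6.09, and WNT10A, a WNT ligand, at 6.44, 8.2 and 3.08 and then at 0.398, 0.904 and 0. All were separate between the groups, with log2 fold changes of −2.35 ± 0.55, −1.71 ± 0.35 and −3.92 ± 0.71. Chromatin modifiers had 2 of 70 higher and 29 lower (2.86% and 41.4%). Their lower count was 15 without uninjured replicate 1, 13 without either uninjured inhibitor replicate 5 or 7 and 35 without uninjured replicate 5. KDM3B, a histone demethylase, was at 96.4, 72.5 and 70.8 against 30.7, 34.9 and 37.6, CHD2, a remodeler, changed by −2.72 ± 0.53, and EED, a Polycomb subunit, rose by 1.27 ± 0.24 on the log2 scale.

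Genes of muscle and skin were lower by counts that turned on single libraries. Of 42 skeletal muscle genes 1 rose and 12 fell (2.38% and 28.6%, beside 19.1% and 17.7% of all genes). The lower count was 28 without uninjured replicate 1, 6 without replicate 2 and 4 without either uninjured inhibitor replicate 5 or 7. Without uninjured replicate 5, 7 muscle genes rose and 7 fell. Of 39 skin genes none rose and 14 fell (35.9%). The lower skin count was 6 without either uninjured replicate 2 or uninjured inhibitor replicate 7, and 17 without uninjured replicate 1. The fast myosin heavy chain MYH13 was at 363, 1049 and 2190 scaled TPM without and 81.0, 199 and 110 with the inhibitor, and MYH1 at 490, 3024 and 2614 against 265, 439 and 326. ACTA1, skeletal actin, overlapped, at 791, 6152 and 1770 against 708, 1403 and 1324 (limma adjusted p = 0.239). MYL2, the slow and cardiac light chain, was the muscle gene that rose, from 6.16, 66.5 and 340 to 588, 561 and 448, and passed in 7 of 12 fits that left out 1 library (adjusted p = 0.0586 without uninjured replicate 1).

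JUP, plakoglobin of desmosomes, was at 178, 174 and 208 scaled TPM in uninjured cords and at 57.9, 40.7 and 24.8 with the inhibitor, a log2 fold change of −2.26 ± 0.34 (limma adjusted p = 0.00230). The keratin KRT7 was at 3.04, 19.8 and 7.24 and then at 0, 0.653 and 0, and KRT1 of the outer skin at 5.61, 41.9 and 8.35 and then at 0 in each library. COL17A1, a hemidesmosome collagen, went from 34.0, 52.4 and 15.1 to 1.46, 5.96 and 0.135. The muscle and skin sums given above did not follow the named genes in every library. Uninjured replicate 1 had a muscle sum of 11653, below the 18884 to 28033 with the inhibitor, but higher MYH13 and MYH1. Uninjured inhibitor replicate 5 had a skin sum of 10746, above the 5140 of uninjured replicate 1, but lower JUP, KRT7, KRT1 and COL17A1. The part of muscle and skin content in the falls was not tested.

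Cartilage and notochord genes had 8 of 28 higher and 4 lower (28.6% and 14.3%, beside 19.1% and 17.7% of all genes). Fibroblast and meninges genes had 7 of 27 higher and 6 lower (25.9% and 22.2%). Without uninjured replicate 1 these counts were 3 and 2 and 4 and 6, and in deposited TPM they were 2 and 8 and 0 and 11. They were 3 and 1 and 2 and 2 without uninjured inhibitor replicate 5, and 5 and 1 and 7 and 2 without replicate 7. OTOS, known from the mammalian inner ear, was at 8.10, 29.4 and 35.5 scaled TPM without and 394, 313 and 261 with the inhibitor (log2 fold change 3.96 ± 0.59, limma adjusted p = 0.00234). CLEC3A, a cartilage lectin, was at 0.762, 7.33 and 3.53 and then at 28.8, 21.1 and 19.6. COL3A1, a fibrillar collagen, rose from 281, 275 and 347 to 1015, 1073 and 756, while COL14A1, which binds collagen fibrils, fell from 8.81, 5.58 and 5.91 to 0.525, 0.865 and 0.0373.

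Blood and vessel genes were mixed. Of 15 erythroid genes 4 rose and 3 fell (26.7% and 20%, beside 19.1% and 17.7% of all genes). The globins HBA2, at 81.6, 146 and 151 scaled TPM without and 466, 576 and 430 with the inhibitor, and HBD, at 2.74, 0.508 and 18.1 against 231, 364 and 206, rose, and TFRC, the transferrin receptor, fell from 15.6, 8.66 and 9.86 to 1.40, 6.24 and 0.839. Of 18 endothelial genes 1 rose and 3 fell (5.56% and 16.7%, both below the shares of all genes). SOX18 and ENG, an endothelial transcription factor and a TGF-beta co-receptor, changed by −3.29 ± 0.53 and −4.36 ± 0.95 on the log2 scale, whereas the adhesion molecule PECAM1 rose by 1.01 ± 0.27.

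**Figure D4:**
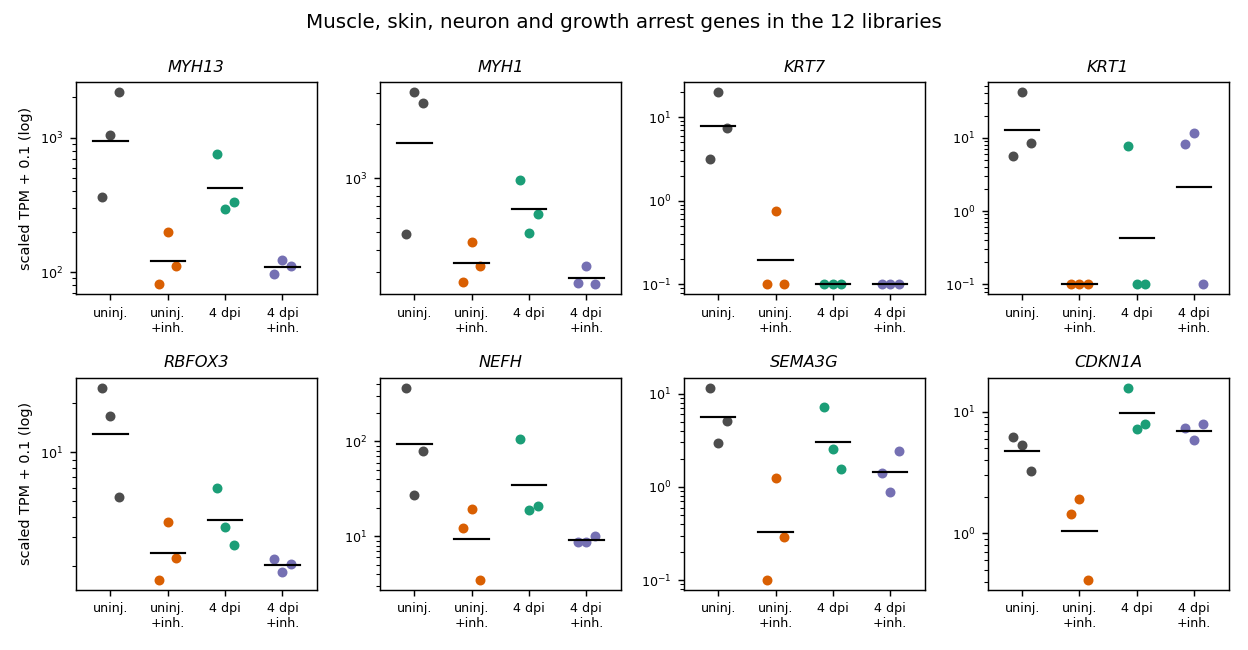
Scaled TPM + 0.1 (log axis) of 8 genes that fell in uninjured cord with the inhibitor, in the 12 libraries, 3 per group; points are libraries and the black line is the mean on the log scale. The uninjured libraries are spread, as MYH1 at 490 to 3024 and NEFH at 27.2 to 368 show, and lie above all uninjured inhibitor libraries.

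Genes of cell division rose more often than they fell in scaled TPM, though not in deposited TPM. Of 44 mitosis genes 13 rose and 2 fell (29.5% and 4.55%, beside 19.1% and 17.7% of all genes). Of 47 DNA replication genes 21 rose and 3 fell (44.7% and 6.38%). Without uninjured replicate 5, 20 mitosis genes rose, but 11 rose without uninjured replicate 1 or without either uninjured inhibitor replicate 5 or 7. For DNA replication the higher count lay between 17 and 24 when single libraries of the compared groups were left out. CDK1, the kinase that starts mitosis, was at 24.6, 62.1 and 61.9 scaled TPM in uninjured cords and at 375, 354 and 318 with the inhibitor, 2.93 ± 0.42 higher on the log2 scale (limma adjusted p = 0.00208). CKS2, a small CDK1 partner, MAD2L1, a spindle checkpoint protein, and PCNA, the replication clamp, rose by 2.38 ± 0.39, 2.35 ± 0.39 and 2.22 ± 0.37. TOP2A, the topoisomerase of mitotic chromosomes, fell from 23.4, 16.6 and 31.6 to 2.29, 5 and 1.55 (log2 fold change −3.09 ± 0.45, limma adjusted p = 0.00211). DNMT1, the maintenance DNA methyltransferase, fell from 188, 165 and 205 to 86.0, 96.4 and 86.1.

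Growth arrest and p53 response genes had 3 of 26 higher and 6 lower (11.5% and 23.1%, beside 19.1% and 17.7% of all genes). The counts were 1 and 7 without uninjured replicate 1, and 1 and 4 without either uninjured inhibitor replicate 5 or 7. CDKN1A, the p21 inhibitor of cyclin kinases, was at 6.14, 5.22 and 3.17 scaled TPM without and 1.34, 1.83 and 0.310 with the inhibitor (log2 fold change −2.19 ± 0.53, limma adjusted p = 0.00913). SESN1, a p53-induced regulator of growth, was at 129, 233 and 235 and then at 71.1, 65.2 and 65.4, and CCNG1, another p53 target, rose from 122, 97.7 and 188 to 339, 341 and 317. RPS27L, a p53-induced ribosomal protein paralog, was at 3.09, 998 and 1.88 and was listed at 0 in all inhibitor libraries, so that its fall rests on very unequal uninjured values.

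Genes of protein synthesis and respiration rose most often of all lists, beside 19.1% higher and 17.7% lower of all genes. Of 78 cytosolic ribosomal proteins 74 rose and none fell, 64 of them under all 3 scalings, with a median log2 fold change of 2.14 in scaled TPM and 0.79 after quantile normalization. RPL39, of the large subunit, was at 787, 1682 and 1427 scaled TPM without and 7476, 5735 and 7736 with the inhibitor (log2 fold change 2.49 ± 0.41, limma adjusted p = 0.00268). Of 75 mitochondrial ribosomal proteins 56 rose, none fell and the medians were 1.54 and 0.89. MRPL27 went from 0.152, 0.322 and 0.561 to 28.9, 30.7 and 18.0, 5.94 ± 0.74 higher on the log2 scale.

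For 79 nuclear genes of the respiratory chain, 68 rose and 3 fell, with medians of 1.85 and 0.67. ATP5I, a small subunit of the ATP synthase, was at 1299, 3034 and 2495 scaled TPM and then at 12372, 10014 and 13605. MT-CO1, from the mitochondrial genome, went from 12083, 18992 and 24294 to 63186, 72784 and 49983 in scaled TPM (limma adjusted p = 0.0235). It passed in 7 of the 12 fits that left out 1 library, and not without uninjured replicate 2 (limma adjusted p = 0.118). Since it had the same rank in each of these 6 libraries, quantile normalization leaves no difference. Uninjured replicate 1 was the lowest library for RPL39, ATP5I and MT-CO1. The summed cytosolic ribosomal level was 32961, 75489 and 68708 without and 186929 to 263757 with the inhibitor.

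Proteasome genes had 25 of 40 higher and 2 lower (62.5% and 5%, beside 19.1% and 17.7% of all genes). Their medians were 1.35 in scaled TPM and 0.73 after quantile normalization. POMP, the proteasome assembly factor, was at 125, 181 and 182 scaled TPM without and at 804, 668 and 781 with the inhibitor. Among 35 chaperones 18 rose and 2 fell (51.4% and 5.71%), with medians of 0.69 and 0.21. The prefoldin subunits PFDN1 and PFDN4, which hand actin and tubulin to a chaperonin, rose by 2.19 ± 0.35 and 1.97 ± 0.31 on the log2 scale, while HSP90AB1, the constitutive Hsp90, fell from 759, 803 and 551 to 251, 375 and 312. Antioxidant genes had 21 of 39 higher and 3 lower (53.8% and 7.69%), with medians of 1.1 and 0.51. SOD1, superoxide dismutase, went from 70.1, 112 and 122 to 424, 321 and 432.

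Splicing factors went in both directions. Of 54 genes 19 rose and 11 fell (35.2% and 20.4%, beside 19.1% and 17.7% of all genes). The medians were 0.28 in scaled TPM and −0.20 after quantile normalization. When single libraries of the compared groups were left out, the lower count lay between 5 and 13. It was 4 with the 6 compared libraries fitted alone. LSM5 and LSM6, small proteins of the ring on U6 RNA, were at 29.2, 37.1 and 44.8 and at 16.5, 25.0 and 32.1 scaled TPM without and at 224, 167 and 172 and at 131, 115 and 134 with the inhibitor. SNRPD2, of the Sm ring, rose by 2.2 ± 0.41 on the log2 scale. SF3B4, which binds near the branch point, was at 65.1, 67.8 and 39.1 and then at 16.4, 19.0 and 12 (log2 fold change −1.84 ± 0.30), and HNRNPU, a large RNA-binding protein of the nuclear matrix, was at 36.9, 35.6 and 25.4 and then at 12.5, 14.4 and 12.9.

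Counts under all 3 scalings were smaller for most lists, beside 6.80% higher and 8.29% lower of all genes. They were 8 higher and 2 lower for mitosis, 10 and 2 for DNA replication, 17 and 2 for the proteasome, 15 and 11 for splicing factors and 5 and 0 for complement and coagulation. For interferon response they were 0 higher and 5 lower, for neurons 1 and 5, for axon guidance 0 and 7, for chromatin modifiers 0 and 16, for skeletal muscle 0 and 10 and for skin 0 and 12. For the miR-200 targets they were 0 and 2, and for the AP-1 subunits 1 and 0. In deposited TPM, more members were lower than higher for several lists whose higher members were more numerous in scaled TPM, with 8 higher and 9 lower for mitosis, 10 and 15 for DNA replication, 15 and 30 for splicing factors, 5 and 8 for complement and coagulation and 3 and 8 for reactive astrocytes.

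**Figure D5:**
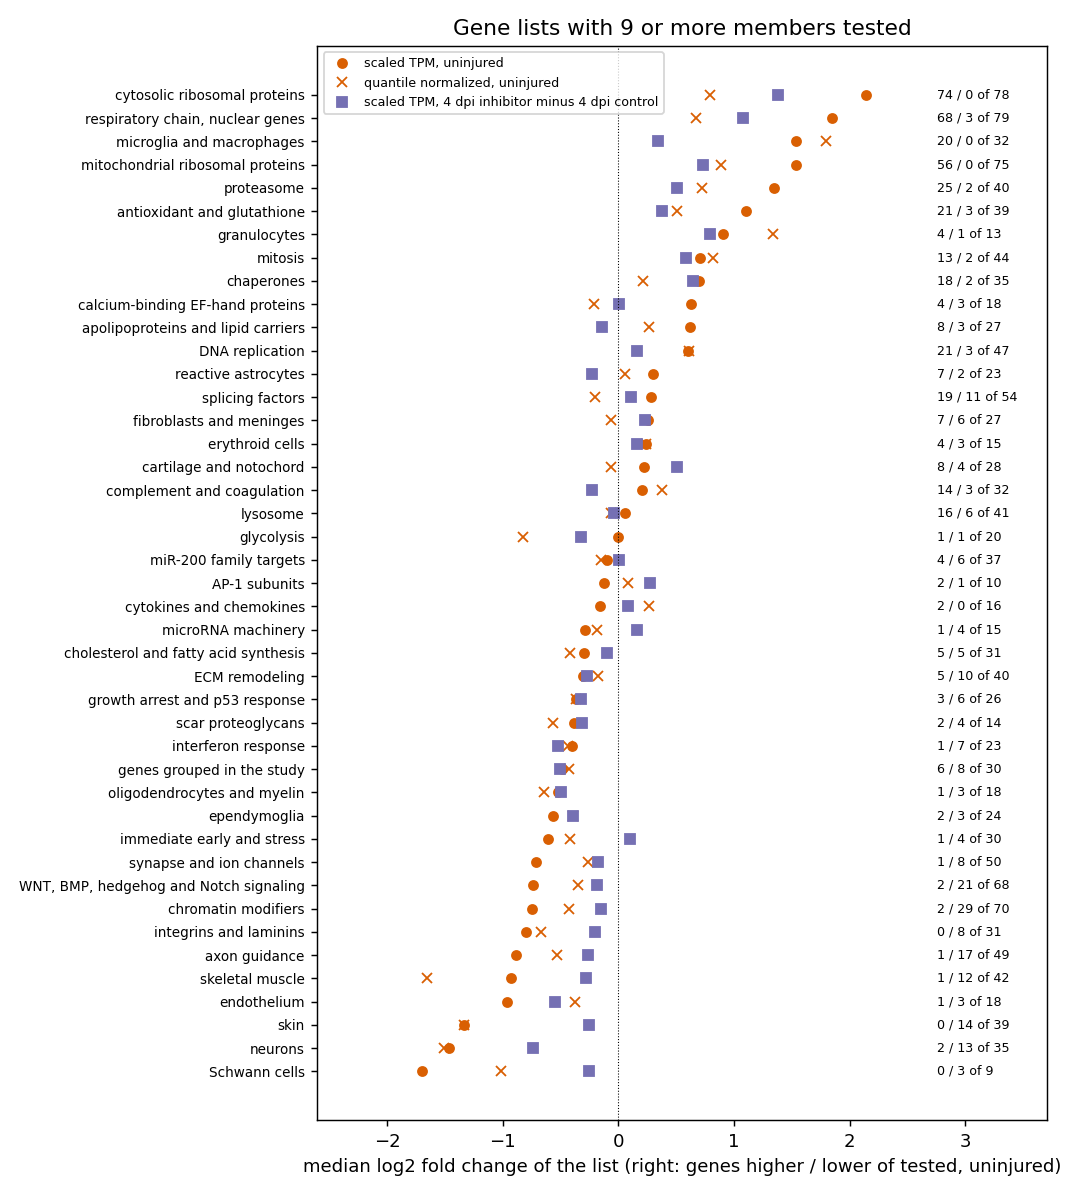
Median log2 fold change of each list with 9 or more members tested: scaled TPM (circles) and quantile normalized values (crosses) in uninjured cord, and scaled TPM for 4 dpi inhibitor minus 4 dpi control (squares). Numbers at the right count genes that rose and fell of those tested; cytosolic ribosomal proteins (2.14) are at the top, and the quantile median is lower there (0.79) but not for microglia and macrophages (1.79 against 1.54).

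The effect of the inhibitor in uninjured cord was last set beside its effect after injury, which comes from 6 other libraries. Of the 2651 genes that rose in uninjured cord, 2572 had a log2 fold change above 0 at 4 dpi, and of the 2459 that fell, 2169 were below 0. Over all genes tested the median log2 fold change at 4 dpi was −0.07, so at least as many genes lay below 0 as above. The scaling factors were lower with the inhibitor at 4 dpi too, at 0.804, 0.932 and 0.774 against 1.67, 1.08 and 1.21. The part of a slope with abundance in these counts was not tested. Across the genes tested Pearson's r was 0.59 and Spearman's rho 0.66 between both effects, as a description only, since genes are not independent and all scaled values share the factors of their libraries. CDK1 was at 49.1, 139 and 130 scaled TPM in 4 dpi controls and at 466, 347 and 388 in 4 dpi inhibitor cords. LGALS1 was at 558, 1115 and 908 and then at 2880, 2391 and 2566.

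A test of the difference between both effects passed for 4 genes (0.0288% of those tested, limma, 1337 at an unadjusted p under 0.05). PLBD1 rose in uninjured cord by 4.51 and was higher at 4 dpi by 1.12 on the log2 scale, from 61.3, 73.5 and 106 to 161, 159 and 191 scaled TPM. MARCO rose by 3.03 in uninjured cord against 0.05 at 4 dpi. C1QTNF9, a secreted protein related to complement C1q, was at 27.0, 18.0 and 20.0 without and at 0, 1.51 and 0.308 with the inhibitor in uninjured cord, but at 1.18, 0.737 and 0.229 in 4 dpi controls and 21.3, 19.7 and 10.9 with the inhibitor after injury. IL27 was at 5.79, 4.03 and 5.69 in 4 dpi controls and 4.96, 6.15 and 7.05 with the inhibitor, beside 0 in every uninjured inhibitor library. Without uninjured replicate 5 none passed this test (limma, 1771 at an unadjusted p under 0.05), and without uninjured inhibitor replicate 6 there were 170.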

How the data were processed

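RNA was extracted from pooled axolotl cords and sequenced in 12 libraries of 4 groups, 3 per group. Per the labels and the study's methods, the authors aligned reads with Bowtie 0.12.1 to assembled axolotl transcripts, estimated abundances with RSEM 1.1.6 and deposited TPM for each human gene symbol that was a transcript's best protein match, so close paralogs can be merged under 1 symbol. Strand use is not given in the sources used here. Symbols that a spreadsheet had turned into dates were restored for 25 genes.

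For this report, TPM was scaled for each library with a median-of-ratios factor from 13002 genes above 0 in all libraries, and log2(value + 0.1) was fitted with limma 3.58.1 in R 4.3.3 (1 term per group, all 12 libraries, 8 residual degrees of freedom, variance trend, two-sided, Benjamini-Hochberg over 13870 genes). Fold changes are on the log2(value + 0.1) scale, which understates changes of low genes. Lists of genes, 45 in all, and the tests were chosen with earlier results of these data known. Named genes were the 15 largest changes in each direction that did not overlap and reached 5 scaled TPM, the 10 most abundant in each direction, from each list its most abundant gene and the 4 with the smallest p, all AP-1 subunits and study-grouped genes, and the 6 smallest p for the difference between effects; some were left out where they added nothing or are not reported here. The script was tested on simulated data. Alternatives were other scalings, pseudocounts, filters, variance models, a replicate block, thresholds and leaving out each library.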

Additional observations from a re-analysis of the deposited data

Results flagged for a closer look

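The effect of the inhibitor differed between uninjured and 4 dpi cord for 4 genes, by a limma test of the difference itself over 13870 genes. On the log2 scale, the effect in uninjured cord minus the effect at 4 dpi was 3.40 for PLBD1 (adjusted p = 0.00791), −10.29 for C1QTNF9 (adjusted p = 0.00791), −5.80 for IL27 (adjusted p = 0.0209) and 2.98 for MARCO (adjusted p = 0.0236). Of these values that of IL27 is no fold change, since all uninjured inhibitor libraries are listed at 0, and that of C1QTNF9 rests in part on 1 library at 0, so both depend on the pseudocount. C1QTNF9 had opposite directions, lower with the inhibitor in all 3 uninjured libraries and higher in all 3 at 4 dpi. C1QTNF2, of the same protein family, was at 23.2, 94.4 and 23.5 scaled TPM without and 11.2, 10.9 and 1.40 with the inhibitor in uninjured cord, and at 1.49, 2.52 and 1 against 23.2, 32.5 and 41.9 at 4 dpi, and the test of its difference gave an adjusted p of 0.0713.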

How the results depend on the processing

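Of 161 named genes that passed, 126 passed in each of the 12 fits that left out 1 library, and 1 (SIRT1) changed direction under any alternative, to −0.051 in deposited TPM. The number of higher genes (2651) was 1013 in deposited TPM, 1495 at an adjusted p under 0.01, 1582 with a replicate block and 1099 with quantile normalization of the 6 libraries alone, a setting added after the data were seen. It ranged from 1740 to 2832 when single libraries were left out. The number of lower genes (2459) was 7060 in deposited TPM, 1448 with quantile normalization, 1630 with a filter at a mean of 5 TPM, 783 when the 6 libraries were fitted alone, 3991 with library weights (whose fit did not fully converge), 425 with the replicate block, 671 at an adjusted p under 0.01 and 467 with quantile normalization of the 6 libraries alone. It ranged from 1094 to 2663 when single libraries were left out, with 1620 without uninjured replicate 1 and 1102 without uninjured inhibitor replicate 7. Higher genes made up 51.9% of calls in scaled TPM, 12.5% in deposited TPM and 60.3% after quantile normalization.

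The number of genes whose inhibitor effect differed between uninjured and 4 dpi cord (4) was 7 with quantile normalization, 8 without a variance trend, 1021 with library weights and 2 with the replicate block, and 0 to 170 without single libraries. Replicate numbers did not pair the libraries throughout. Same-numbered libraries of different groups correlated by −0.31 to 0.53 in their deviations from the group means, 3 of 11 pairs above 0.1. The value of 0.53 was that of uninjured replicate 1 with 4 dpi control replicate 1, the highest between any libraries of different groups. Both also had the largest scaling factors (1.77 and 1.67). The number 1 occurs only in groups without the miR-200 inhibitor, and what these libraries share was not tested. The compared groups share the number 5 alone (0.05).

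Among genes that did not pass, CSPG4 had log2 fold changes of −0.91 in deposited TPM, −0.0011 with a pseudocount of 1, −0.12 without both libraries numbered 1 and −0.13 to 0.11 without single libraries. JUN was at 0.089 with library weights, 0.19 with the replicate block, 0.0040 without both libraries numbered 1 and −0.29 to 0.25 without single libraries. JUNB was at 0.0031 with library weights, 0.60 with the block and −0.90 to 1.03 without single libraries, the highest without uninjured replicate 2, where it passed (adjusted p = 0.0480). JUND ranged from −0.31 to 0.080. ZEB1 was at −0.43 in deposited TPM and −0.10 with the block. ZEB2 was at −0.92 in deposited TPM, −0.14 with library weights, −0.052 with the block and −0.33 to 0.35 without single libraries. The cause of these changes was not tested, and the depth behind the values is unknown.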

Other observations

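Lists of metabolism and transport went in both directions, beside 19.1% higher and 17.7% lower of all genes. Of 41 lysosome genes 16 rose and 6 fell, but 5 were higher and 20 lower in deposited TPM, 5 and 4 after quantile normalization and 4 and 2 under all 3 scalings. Of 27 apolipoproteins and lipid carriers 8 rose and 3 fell (5 and 6 in deposited TPM), and of 18 calcium-binding EF-hand proteins 4 rose and 3 fell (3 and 5). Cholesterol and fatty acid synthesis had 5 higher and 5 lower of 31 (none lower without either uninjured replicate 1 or uninjured inhibitor replicate 5). Glycolysis had 1 higher and 1 lower of 20, but 0 and 13 in deposited TPM. After quantile normalization it had 0 and 9, with a median log2 fold change of −0.83. Immediate early and stress genes had 1 and 4 of 30 (0 and 16 in deposited TPM, 0 and 5 after quantile normalization). Mitochondrially encoded respiratory genes had 2 and 0 of 5. None of 4 lymphocyte genes passed (limma). OCM, a parvalbumin-family calcium-binding protein and the most abundant gene in all 6 uninjured libraries by deposited TPM, was at 14318, 81669 and 78750 scaled TPM without and 66437, 105802 and 105365 with the inhibitor, with an overlap (limma adjusted p = 0.284).

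A few abundant genes outside the lists fell, though abundant genes more often rose. Of 1416 genes with a mean from 100 to under 1000 scaled TPM, 795 rose and 68 fell. FSTL1, a secreted follistatin-like protein, was at 978, 269 and 722 scaled TPM without and 56.8, 229 and 17.3 with the inhibitor. The growth factor PTN was at 1105, 347 and 668 against 280, 296 and 308. It passed in 7 of the 12 fits that left out 1 library, and not without uninjured replicate 1 (limma adjusted p = 0.123).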
